A study of Mus musculus with 6 samples.

Results

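The noncoding genes beside and inside the cardiac myosin heavy chain genes were examined in mouse hearts in which thyroid hormone receptor alpha was blocked. The genes were 8 named members chosen by position, at Myh6 and Myh7 on chromosome 14 or, for Mir499, inside Myh7b on chromosome 2, and by their presence in the count tables. Of the 8, 5 are among the 20121 genes listed: Mir208a, Mir208b, Mhrt, Gm17428 and Mir499. The other 3, Gm49130, Gm29015 and Gm31251, have no row, so their expression was not analysed here. Their Ensembl identifiers are numbered above the highest one listed, as are those of 17855 genes of GENCODE M21. The lowest total of any listed gene was 2 counts over the 6 libraries, and the listed member nearest to it was Mir499, with 15.

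RNA was taken from the hearts of 14-day-old pups (postnatal day 14) whose strain was a mix of ICR and C57BL/6. All pups carried the knock-in allele TRalphaAMI, from which Cre recombinase switches on a dominant negative thyroid hormone receptor alpha. The 3 control pups had this allele and no Cre; their 3 mutant littermates also had Myh6-Cre, whose expression is given as cardiomyocyte-specific. No group had Myh6-Cre without the allele. The Cre is driven by the promoter of Myh6, which lies at this same locus, and the labels do not give the promoter fragment, so whether mutant hearts carry extra copies of the stretch where Mhrt starts is not known.

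In the adult mouse heart Myh6 encodes the fast myosin heavy chain and Myh7 the slow, fetal one, and thyroid hormone is known to raise the former and lower the latter. The introns of the myosin genes hold related microRNAs, often called myomiRs: miR-208a in Myh6, miR-208b in Myh7 and miR-499 in Myh7b. Such intronic microRNAs are known to be cut from the transcripts of their host genes. Mhrt, or Myheart, is a long noncoding RNA of heart muscle transcribed from the opposite strand of Myh7, and it is known for binding the chromatin remodeller Brg1.

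The 3 mature microRNAs are shown because their seeds, bases 2 to 8 from the 5′ end (in capitals), set which messages they can pair with. The sequences are those of RefSeq for GRCm38.p6, 5′ to 3′, and all 3 microRNA genes matched.
miR-208a-3p: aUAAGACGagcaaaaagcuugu
miR-208b-3p: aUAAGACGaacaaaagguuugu
miR-499-5p: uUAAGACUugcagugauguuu
The miR-208 pair shared the seed UAAGACG and differed at 3 of 22 bases, none of them in the seed: G10A, A16G and C18U, counted from the 5′ end with the base of miR-208a first. The seed of miR-499 differed from it at 1 base, G8U.

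What the count tables hold for these genes is reads over the hairpin in the host's intron, not the mature microRNA, since libraries of this kind do not retain RNA that short. The 3 hairpins, shown next with the mature arm in capitals, are the stretches over which reads were counted.
Mir208a: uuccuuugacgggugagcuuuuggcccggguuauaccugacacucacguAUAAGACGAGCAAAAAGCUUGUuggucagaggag
Mir208b: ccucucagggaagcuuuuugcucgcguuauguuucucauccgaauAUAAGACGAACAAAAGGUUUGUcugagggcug
Mir499: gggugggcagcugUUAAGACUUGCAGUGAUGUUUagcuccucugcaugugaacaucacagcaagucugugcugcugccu
Mir208a lies at chr14:54949060-54949142 on the minus strand, in an intron of Myh6 of 542 bases. Mir208b lies at chr14:54975700-54975776 on the minus strand, in an intron of Myh7 of 461 bases. Mir499 lies at chr2:155622880-155622958 on the plus strand, in an intron of Myh7b of 481 bases. No hairpin overlaps an exon of its host.

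Mhrt (chr14:54968678-54974349, plus strand) starts 1751 bases from the 5′ end of Myh6, runs away from it and ends inside Myh7. Its exons cover 1214 bases, of which 484 (39.9%) are also exon bases of Myh7 on the opposite strand. Its promoter window in RefSeq, chr14:54968537-54968836 on the plus strand of GRCm38.p6, is shown because all members tested moved one way and Mhrt starts in the gap between the myosin genes; capitals mark the bases from the start of the RefSeq transcript on, which begins downstream of the GENCODE one.
Mhrt promoter: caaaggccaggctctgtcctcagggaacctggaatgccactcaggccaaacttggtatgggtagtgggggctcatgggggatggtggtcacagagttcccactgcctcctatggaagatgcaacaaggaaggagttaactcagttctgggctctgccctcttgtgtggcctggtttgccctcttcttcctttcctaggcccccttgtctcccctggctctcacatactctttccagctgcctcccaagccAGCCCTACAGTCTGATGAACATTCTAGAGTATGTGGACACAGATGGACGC
The window held no AGGTCA, the core of a thyroid hormone response element, on either strand. Of 32851 RefSeq promoter windows of 300 bases, 16.3% held it. Among other windows of these loci, 4 of 5 of Gm31251 and the 1 of Myh7b held it. The 1 of Myh6 and the 2 of Myh7 did not. Only exact copies were searched. The absence of these letters from the window of Mhrt, Myh6 or Myh7 says nothing of sites in it that differ from them, or of sites elsewhere.

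Gm17428 (chr14:54976933-54977025, plus strand) goes against the label of a noncoding gene, since GENCODE M21 annotates it as protein coding. It is a gene model of 93 bases in an intron of Myh7 on the opposite strand, and its sequence in the GENCODE transcripts (GRCm38) is shown because it is nearly all A and G (98.9% of bases, with a longest run of 88 in capitals).
Gm17428: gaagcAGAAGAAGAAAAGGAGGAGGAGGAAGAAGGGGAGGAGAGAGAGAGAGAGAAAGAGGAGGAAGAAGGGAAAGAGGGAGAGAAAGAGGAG
None of its 64 windows of 30 bases occurs in a transcript of another gene on either strand, but copies elsewhere in the genome were not searched. The lncRNA Gm31251 is longer in RefSeq (chr14:54975264-55005006) than in GENCODE, and both Mir208b and Gm17428 fall within that longer span. The library kit does not mark strand, so at Mir208b, Gm17428 and Mhrt, reads from Myh7 and reads from RNA of the opposite strand cannot be told apart.

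**Figure D1:**
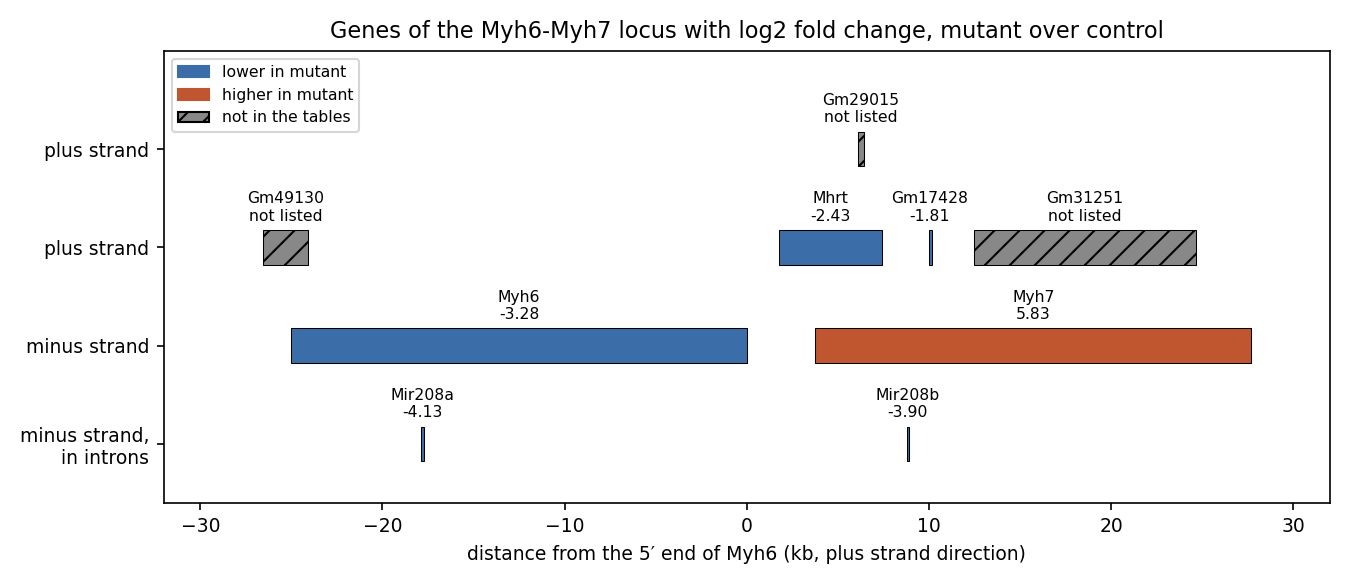
Map of the Myh6-Myh7 locus in kb from the 5′ end of Myh6, by strand, with the log2 fold change of each listed gene (mutant over control) and hatched bars for genes with no row; bars of the shortest genes are drawn wider than scale. Blue genes, Mir208b inside Myh7 among them, were lower in mutant hearts, and Myh7 (5.83) was higher.

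The libraries held 43314706 to 62095277 counts. Over 14877 genes tested with edgeR's quasi-likelihood test, 37.5% passed an adjusted p of 0.05 (Benjamini-Hochberg), 18.1% as higher and 19.5% as lower in mutant hearts. Of the calls, 48.1% were higher with TMM scaling and 86.1% without scaling for composition, which moved the median gene by 0.28 on the log2 scale. All 5 heart muscle markers were listed, and their summed level was 25591 to 29725 CPM (TMM-scaled) in control and 21280 to 22431 in mutant hearts, with 4 of 5 lower. The 3 atrial markers summed to 2.25 to 3.07 CPM in control and 3.06 to 3.95 in mutant hearts, near 0 for tissue labelled as heart. The 5 skeletal muscle markers summed to 11.95 to 14.1 CPM in control and 28.0 to 38.2 in mutant hearts, with 1 of 3 tested higher. The 3 fibroblast markers summed to 830 to 869 CPM in control and 1002 to 1041 in mutant hearts, with 2 of 3 higher, and the 3 endothelial markers to 940 to 1035 and 827 to 886, with 2 of 3 lower. The 3 smooth muscle and pericyte markers summed to 1460 to 1617 and 1171 to 1330 CPM, with 1 of 3 lower, the 3 macrophage markers to 40.9 to 45.8 and 28.3 to 29.7, with 2 of 3 lower, and the 3 erythroid markers to 132 to 202 and 75.5 to 199, with none called. No marker was at 0 in all hearts. The part of these shifts in the values below was not tested, and in bulk tissue fewer cells of a type and less RNA per cell cannot be told apart. The low atrial markers give no sign that atria were in the samples, which are therefore not called whole hearts here.

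All 4 members with enough counts to test were lower in mutant hearts. For Mir208b, Mhrt and Gm17428 the call could go either way, and 19.5% of all genes were called lower. The groups did not overlap for any of the 4, as was so for 49.8% of all genes tested. Mir208b, Mhrt and Gm17428 met the filter on low counts (0.210 CPM) in every heart of both groups. Mir208a met it in 3 control and 0 mutant hearts, so it passed only through the group where it was high. Neither its call nor its lack of overlap adds support. Mir499 met it in no heart and has no test. The members were put forward with earlier results of these hearts known, so their p-values are not independent support.

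Mir208a, the microRNA gene inside Myh6, fell with its host. It had 54, 61 and 68 counts in control hearts and 4, 3 and 4 in mutant hearts. Every control heart was far above every mutant heart. The level went from 1.28 ± 0.172 to 0.0705 ± 0.0103 CPM (SD, n = 3 each), and the ratio of summed counts, scaled by library, was 17.9-fold lower with an exact 95% interval of 9.78 to 36.5 that covers counting error only. The fitted log2 fold change was -4.13 ± 0.28 (SE; edgeR quasi-likelihood adjusted p = 5.31e-06). The fitted value rests on 11 mutant counts, with every mutant heart under the filter.

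Myh6 itself had 35124, 38909 and 37735 CPM in control hearts and 3656, 3511 and 4320 in mutant hearts, a log2 fold change of -3.28 ± 0.10 (SE). Mir208a gave 0.00392, 0.00278 and 0.00366 counts per 100 Myh6 counts in control hearts. In mutant hearts it gave 0.00216, 0.00168 and 0.00170. The ratio was thus lower in all 3 mutant hearts, by 0.72 on the log2 scale (exact two-sided permutation test over hearts, p = 0.1, the smallest that 3 against 3 allows, and 0.1 after adjustment over 4 ratios). The mutant values rest on 11 counts in all.

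Mir208b went the opposite way to the gene that holds it. It had 474, 710 and 886 counts in control hearts and 31, 68 and 49 in mutant hearts. In CPM these were 12.1, 12.6 and 18.01 against 0.611, 1.34 and 0.902, with every control heart above every mutant heart. The log2 fold change was -3.90 ± 0.25 (SE), a fall of 15.0-fold (edgeR quasi-likelihood adjusted p = 3.59e-06). Without scaling for composition it was -3.62, and it kept its call in all 14 alternatives run.

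Myh7 rose over the same hearts, from 273, 296 and 387 CPM in control to 17020, 18472 and 18735 in mutant hearts, which was 5.83 ± 0.15 (SE) on the log2 scale. Mir208b gave 4.43, 4.26 and 4.65 counts per 100 Myh7 counts in control hearts. In mutant hearts it gave 0.00359, 0.00724 and 0.00481. The ratio fell by 9.78 on the log2 scale, 879-fold, with no overlap (exact permutation test, p = 0.1, the smallest possible). In control hearts the deposited RPKM of Mir208b was 141, 148 and 211, and that of Myh7 was 28.6, 31.1 and 40.6. In mutant hearts Mir208b was far below Myh7, with 8.54, 19.1 and 13.1 RPKM for Mir208b and 2132 to 2436 for Myh7. RPKM overstates so short a gene by an amount not known here, since a read is counted if it only touches it and the read length is not given in the sources used here.

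**Figure D2:**
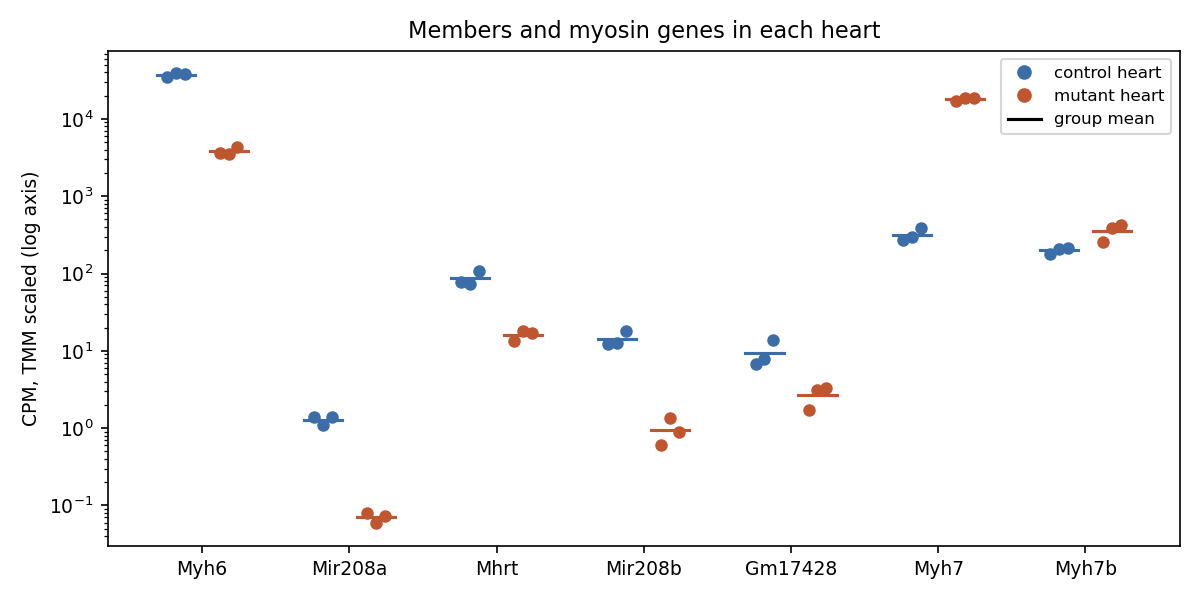
TMM-scaled CPM on a log axis for 4 members and the 3 myosin genes, 1 point per heart (blue control, orange mutant) with lines at group means. Mir208a, Mhrt, Mir208b and Gm17428 sit lower in all mutant hearts, while Myh7 rose from 319 to 18076 CPM on average.

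To set these pairs beside others, every tested microRNA gene that lies on the same strand within exactly 1 tested protein-coding gene was taken, which gave 17 pairs. The microRNA gene's log2 fold change less that of its host was -9.73 for Mir208b, -0.84 for Mir208a and up to 1.33 for the rest, with a median of 0.12. In 2 of the 17 pairs both genes passed the test, Mir208a with Myh6 and Mir208b with Myh7. Only in the latter did they move in opposite directions. Mir208a was tested only because it was high in control hearts, so that its call could go one way alone and adds no support that it moved with its host. Most other pairs had few counts and small changes, so this is a description of these 17.

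**Figure D3:**
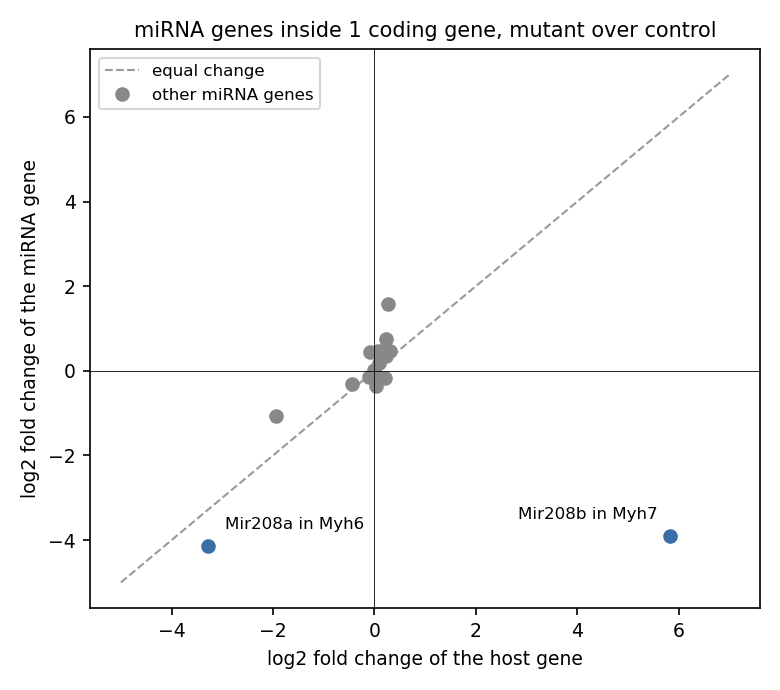
Log2 fold change (mutant over control) of 17 tested microRNA genes against that of the coding gene that holds them; the dashed line marks equal change. Mir208a lies near the line and Mir208b far below it, at -3.90 against 5.83 for Myh7.

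Mhrt, antisense to the end of Myh7, fell. It had 3043, 4117 and 5373 counts in control hearts and 672, 919 and 925 in mutant hearts. Control heart 3 was the highest at 109 CPM, above 77.6 and 73.1 in the other control hearts, and the mutant hearts had 13.3, 18.1 and 17.0. The log2 fold change was -2.43 ± 0.17 (SE), a fall of 5.37-fold (edgeR quasi-likelihood adjusted p = 5.52e-06). Per length, the mean RPKM of Mhrt was 64.3 ± 14.6 in the control group and 14.6 ± 2.49 in the mutant group (SD, n = 3 each), above Myh7 in control hearts (33.4 ± 6.33) and far below it in mutant hearts (2311 ± 159).

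Since Mhrt and Myh7 share exon bases, how the authors counted reads over the shared bases bears on its values. At the density of Myh7 counts per exon base, the 484 shared bases would hold 48480 to 57185 reads in each mutant heart. Mhrt was listed there with 672 to 925 over all its exons. The deposited RPKM still divides by all 1214 exon bases. Over the 730 bases that no Myh7 exon shares, Mhrt would be at 95.7, 90.3 and 135 RPKM in control hearts and at 19.5, 27.2 and 26.0 in mutant hearts, a scale added after the values were seen.

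Mhrt fell less than Myh6, with which it shares the gap between the myosin genes. There were 0.221, 0.188 and 0.289 Mhrt counts per 100 Myh6 counts in control hearts and 0.363, 0.515 and 0.394 in mutant hearts. Against Myh7, Mhrt went from 24.7 to 28.4 counts per 100 Myh7 counts in control hearts to 0.0779 to 0.0979 in mutant hearts. Neither ratio overlapped between groups (exact permutation test, p = 0.1 for each, the smallest possible; the ratio to Myh6 was chosen after the values were seen).

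Gm17428, the purine-rich model in an intron of Myh7, fell least of the members tested. It had 266, 439 and 675 counts in control hearts and 87, 157 and 177 in mutant hearts. In CPM the control hearts had 6.78, 7.79 and 13.7 and the mutant hearts 1.72, 3.09 and 3.26, so that control heart 3 again stood highest and mutant heart 1 lowest. The log2 fold change was -1.81 ± 0.30 (SE), a fall of 3.51-fold (edgeR quasi-likelihood adjusted p = 0.00114). Without control replicate 3 it was -1.44, and without control replicate 1 it was -2.00, with the call kept. Against its neighbour, Gm17428 gave 2.49, 2.63 and 3.54 counts per 100 Myh7 counts in control hearts and 0.0101, 0.0167 and 0.0174 in mutant hearts (exact permutation test, p = 0.1, the smallest possible).

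The members within Myh7 were also set against Mhrt, which lies between them and Myh6, in ratios chosen after the values were seen. Mir208b gave 15.6, 17.2 and 16.5 counts per 100 Mhrt counts in control hearts and 4.61, 7.40 and 5.30 in mutant hearts, so Mir208b fell further than Mhrt. Gm17428 gave 8.74, 10.7 and 12.6 per 100 Mhrt counts in control hearts and 12.9, 17.1 and 19.1 in mutant hearts, so it fell less. Gm17428 gave 56.1, 61.8 and 76.2 counts per 100 Mir208b counts in control hearts and 281, 231 and 361 in mutant hearts. None of these 3 ratios overlapped between groups, with p = 0.1 for each in the exact permutation test and 0.125 after adjustment over 5 such ratios, that of Mhrt to Myh6 among them. There were 8.78, 11.6 and 13.03 Mir208b counts per Mir208a count in control hearts and 7.75, 22.7 and 12.3 in mutant hearts. The groups overlapped, and the mean log2 ratio differed by 0.07 (exact permutation test, p = 1). The Mir208a counts behind the mutant ratios were only 3 or 4 per heart.

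**Figure D4:**
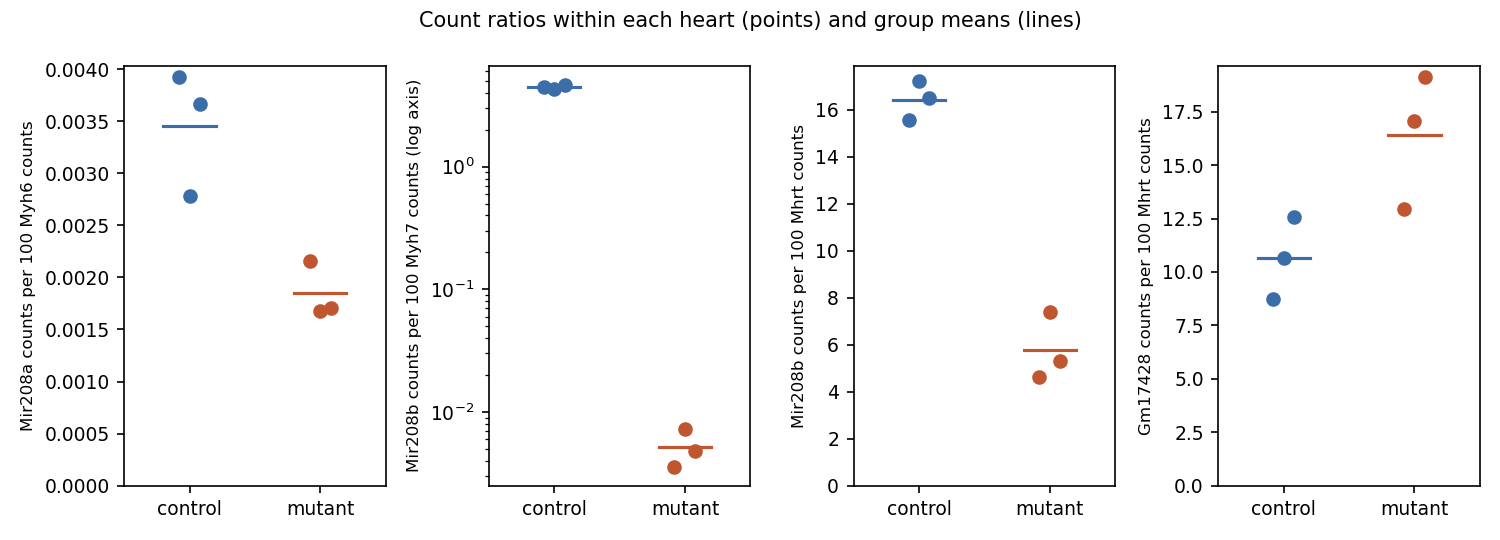
Count ratios within each heart (points) with group means (lines): Mir208a to Myh6, Mir208b to Myh7 on a log axis, and Mir208b and Gm17428 to Mhrt. Control and mutant hearts are apart in each panel, and the ratio of Gm17428 to Mhrt alone is higher in mutant hearts, at 12.9 to 19.1 per 100.

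Mir499, the microRNA gene inside Myh7b, was hardly detected. It had 2, 0 and 2 counts in control hearts and 2, 6 and 3 in mutant hearts. The groups overlapped, and the ratio of summed counts, scaled by library, was 2.55 (mutant over control) with an exact 95% interval of 0.757 to 10.997 for counting error. A difference was thus not detectable at this depth. Its host Myh7b, a slow myosin gene, rose from 176, 209 and 213 to 254, 384 and 423 CPM, which was 0.83 ± 0.16 (SE) on the log2 scale (edgeR quasi-likelihood adjusted p = 0.00339).

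Levels per length can be ordered only in part, since RPKM overstates the 77- to 93-base genes against Mhrt and divides Mhrt by bases it shares with Myh7. In control hearts the mean RPKM was 167 ± 38.3 for Mir208b, 91.4 ± 36.2 for Gm17428, 64.3 ± 14.6 for Mhrt, 13.9 ± 1.84 for Mir208a and 0.348 ± 0.307 for Mir499 (SD, n = 3 each). Gm17428 (65.7 to 133) and Mhrt overlapped there on all exon bases (54.3 to 81.0) and on unshared ones (90.3 to 135), and their order was not settled. In mutant hearts the mean was 31.8 ± 10.5 for Gm17428, 14.6 ± 2.49 for Mhrt, 13.6 ± 5.30 for Mir208b, 0.987 ± 0.581 for Mir499 and 0.931 ± 0.130 for Mir208a. Mhrt overlapped Mir208b (8.54 to 19.1) on all exon bases and lay above it, overlapping Gm17428 (19.8 to 39.1), on unshared ones (19.5 to 27.2). Mir499 and Mir208a overlapped in mutant hearts. On either scale Mir208a and Mir499 were the lowest in both groups.

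The genes whose profile over the 6 hearts was most like each member's were found by the mean absolute difference of log2 CPM after removing each gene's mean, among 12653 genes with a mean of at least 1 CPM. For Mir208a these were 2210408F21Rik (0.17), Lrrc15 (0.18) and Klhl33 (0.18), with Myh6 at 0.20. For Mir208b they were Ip6k3 (0.25), Ush1c (0.29) and Hcn2 (0.34), with Mir208a at 0.39, Myh6 at 0.42 and Myh7 at 4.87. Dnaaf3, Prodh and Slc38a3 were nearest to Mhrt, each at 0.13, and Gm17428 was at 0.32 from it. Dbh (0.18), Mlxipl (0.19) and Cux2 (0.23) were nearest to Gm17428. With 3 hearts in each group such likeness mostly reflects the size of the group difference. The log2 CPM used a prior count of 2, which shrinks the fall of Mir208a, at 3 or 4 counts per mutant heart. Its distances, that to Mir208b among them, depend in part on this setting.

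Other genes near the myosin loci moved in both directions. Of 9 other tested genes within 100 kb of Myh6 and Myh7, 6 were higher and 3 lower (37.5% of all genes were called). Cmtm5 lies past the 3′ end of Myh6 on the opposite strand, with a gap of 2647 bases between the 3′ ends of the genes. It fell 6.45-fold, from 1.16 to 0.180 CPM. Slc22a17, farther past the 3′ end of Myh6, rose 3.65-fold, and Efs (1.89-fold), Zfhx2 (1.82-fold) and Ppp1r3e (1.53-fold) also rose. Homez (0.27 on the log2 scale), Pabpn1 (0.32), Bcl2l2 (-0.18) and Ngdn (-0.21) changed little, and without scaling for composition or on RPKM the last 2 turned positive and were not called. Homez, Bcl2l2 and Ngdn also lost their calls with DESeq2 and with no filter on low counts, and DESeq2 called 1 of these neighbours lower. Of 5 other tested genes within 100 kb of Myh7b, Edem2 was higher (0.34), Acss2 was lower (-0.26, with the sign turned and no call without scaling for composition) and 3 did not pass. Without control replicate 2, mutant replicate 2 or mutant replicate 3, none of Homez, Pabpn1, Bcl2l2, Ngdn and Edem2 was called, and some of these calls were also lost without control replicate 1, control replicate 3 or mutant replicate 1.

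Genes reported as targets of miR-208 or miR-499 were little changed. Of 11 such genes 10 were tested, with 4 higher, none lower (2 at an unadjusted p under 0.05 by the same test, and 1 by DESeq2) and 6 not past the threshold; the median log2 fold change was 0.13, against -0.00 for all genes tested, of which 37.5% were called. Med13, a Mediator subunit and a known target of miR-208a, went from a mean of 114 ± 13.1 CPM to 118 ± 16.7 (SD, n = 3 each), or 0.04 ± 0.11 (SE) on the log2 scale. The transcription factor genes Sox6 (0.30) and Sp3 (0.29), the heterochromatin protein gene Cbx1 (0.22) and the translation inhibitor gene Pdcd4 (0.44 ± 0.10) rose. Mstn, which encodes myostatin, had 36 counts in control and 10 in mutant hearts and was not tested. Without scaling for composition 6 targets, Med13 among them, were higher. The count of higher targets fell to 2 without control replicate 2, mutant replicate 2 or mutant replicate 3 and to 1 without control replicate 3. Pdcd4 was called in every alternative.

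Matches to the seeds in the longest annotated 3′ UTR of these genes are shown for Med13, Sox6, Sp3 and Pdcd4, since Med13 is a known target of miR-208a and the other 3 are the reported targets that rose and hold a match. Cbx1 also rose and holds none. Sox6 holds 3 miR-499 matches as well. The first of them lies in lower case within the Sox6 stretch shown, just after the miR-208 match, and the others are not shown. Matches to miR-499, also not shown, lie in Purb (log2 fold change 0.25), Ptbp3 (-0.08) and Ppp3ca (-0.14), none of them called. Mstn, which was not tested, holds a miR-499 match too. The motifs were CGTCTTA for miR-208 and AGTCTTA for miR-499, searched on the mRNA strand only; capitals mark the match, and sequence is from GENCODE M21 transcripts (GRCm38).
Med13, miR-208 match: aatatatgtaatCGTCTTAattaaaacgt
Sox6, miR-208 match: tctgcccatcgcCGTCTTAtgagtcttac
Sp3, miR-208 match: taaggtgtattgCGTCTTAgcagagaatt
Pdcd4, miR-499 match: agcaactcttacAGTCTTAggtgttacca
They lie on the minus strand at chr11:86270423-86270451 (Med13), chr7:115476626-115476654 (Sox6) and chr2:72937227-72937255 (Sp3), and on the plus strand at chr19:53929148-53929176 (Pdcd4). Of 21173 such UTRs, 1.62% held CGTCTTA and 9.71% held AGTCTTA. Among 273 tested genes with the miR-208 match, 53 (19.4%) were higher and 45 (16.5%) lower, against 18.3% and 20.2% of genes without it. The median log2 fold change was -0.00 with the match and -0.01 without it. Among 1547 with the miR-499 match, 293 (18.9%) were higher and 256 (16.5%) lower, against 18.3% and 20.6% without it. The medians were 0.03 with and -0.01 without the match. UTRs with a match were longer (medians of 2843 and 2900 bases, against 1344 and 1221 without), so the groups differ in more than the match. This split was added after the values were seen, and no mature microRNA was measured.

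**Figure D5:**
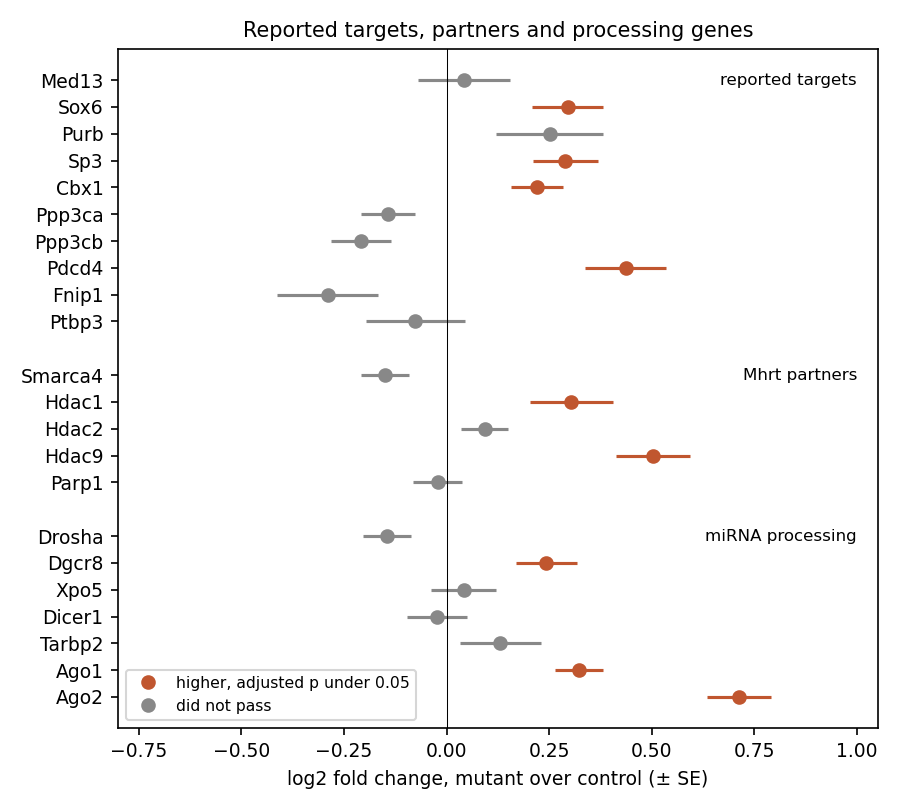
Log2 fold change (mutant over control, ± SE) of 22 tested genes: reported targets, Brg1 and its partners, and genes of microRNA processing. The Brg1 group is labelled Mhrt partners. Orange points passed the test, with Ago2 the farthest at 0.71, and none passed as lower.

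Among genes of Brg1 and the proteins known to act with it at the myosin genes, 2 of 5 were higher and none lower. At an unadjusted p under 0.05 by the same test 1 was lower, and by DESeq2 0 were. The median log2 fold change was 0.09. Over all genes 18.1% were called higher and 37.5% in either direction, and 2 of 5 is near the latter share. Hdac9, a histone deacetylase gene, rose by 0.50 ± 0.09 (SE), from 39.3 ± 3.86 to 55.7 ± 4.55 CPM (SD, n = 3 each), and was called in every alternative. Hdac1 rose by 0.30 ± 0.10 from 7.91 CPM, a call lost with no filter on low counts and without control replicate 1, control replicate 2, mutant replicate 2 or mutant replicate 3, which left 1 of 5 higher each time. Smarca4, which encodes Brg1, had a log2 fold change of -0.15 ± 0.06 (edgeR quasi-likelihood adjusted p = 0.0731). Without scaling for composition 4 of the 5 were higher, and Smarca4 turned positive with no call.

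Of 7 genes of microRNA processing, 3 were higher and none lower (1 at an unadjusted p under 0.05, and 0 by DESeq2), with a median of 0.13. This count too is near the 37.5% of all genes called. Ago2, an Argonaute that holds mature microRNAs, rose from 101 ± 6.42 to 165 ± 13.8 CPM (SD, n = 3 each), by 0.71 ± 0.08 (SE; edgeR quasi-likelihood adjusted p = 9.65e-05). Ago1 rose by 0.32 and Dgcr8, the partner of Drosha, by 0.24, a call lost without control replicate 2, control replicate 3, mutant replicate 2 or mutant replicate 3. Drosha (-0.14), which cuts primary microRNA transcripts, and Dicer1 (-0.02) did not pass. Without scaling for composition, 6 of the 7 were higher, Dicer1 among them, and Drosha turned positive with no call.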

How the data were processed

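RNA was sequenced from 6 hearts, 3 per group, with Illumina TruSeq RNA version 2 libraries, per the labels' protocols. The authors deposited whole-number counts for each Ensembl identifier; cutadapt 1.9, STAR 2.5.2b, featureCounts 1.5.1 and mm10 are named in the submitters' processing notes, with no role or order. The strand setting, and how reads over several genes or shared by the near-identical Myh6 and Myh7 were counted, are not stated in any source read. RPKM values, also deposited by the authors, imply gene lengths that for the 5 listed members stand in the ratio of their GENCODE M21 exon bases. M21 uses the same genome build; 20081 identifiers matched.

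Counts were tested with edgeR 4.0.16 (R 4.3.3): filterByExpr at a minimum count of 10, TMM, quasi-likelihood F test with group only, Benjamini-Hochberg over 14877 genes. Fits were tested on simulated data. The SE shown is the log2 fold change over the square root of F. Ratios used log2 of counts plus 0.5. DESeq2 1.42.0 and limma 3.58.1 on log2(RPKM + 1) and log2(RPKM + 0.1) were alternatives. Depth was 43314706 to 62095277 counts. Each heart was from another pup. Named genes were all members, the host genes, called genes of the fixed lists and of the 100 kb windows, and the 3 genes most like each member. Ratios to Mhrt, Myh6 or another member, Mhrt on unshared bases and seed-match lists were added after values were seen. Members and lists were chosen with earlier results of these data known.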

Additional observations from a re-analysis of the deposited data

How the results depend on the processing

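Mir208b, Mhrt and Gm17428 kept their direction and call in all 14 alternatives. Mir208a kept its own in the 13 that tested it. Where a filter was passed only through control hearts, the call of Mir208a could go one way alone and adds no support. The log2 fold changes ranged from -4.24 to -2.94 for Mir208a, from -4.22 to -3.57 for Mir208b, from -2.54 to -2.06 for Mhrt and from -2.00 to -1.44 for Gm17428, and the highest adjusted p was 0.00519. With a filter of 1 CPM in 3 libraries Mir208a was not tested, which left 3 members lower. The ratios of members to myosin genes kept their direction without each heart in turn, where the smallest possible p is 0.2. Over all genes, no scaling for composition gave 7479 higher and 1207 lower, log2(RPKM + 1) 7349 and 1215, and log2(RPKM + 0.1) 7391 and 1221, against 2688 and 2898. On these 3 scales 4 genes of the list of Brg1 and its partners and 6 processing genes were higher, against 2 and 3. With no filter on low counts 1 gene of the Brg1 list was higher. Leaving out 1 heart at a time gave 1 to 4 higher and 0 to 1 lower targets, and 1 to 2 higher genes of the Brg1 list. DESeq2 called 1 target lower. With the replicate number as a block, 3 targets and 1 gene of the Brg1 list were lower, and 3090 genes were higher and 3229 lower. Same-numbered hearts deviated together with correlations of -0.05 to 0.15, and 4 of 6 hearts correlated best with their own number. These values do not settle whether the numbers pair the hearts, and the main fit took no pairing. Depth limits Mir499 and the mutant values of Mir208a.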
